A study of Mus musculus with 2 samples.

Results

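The 7 genes described here encode the core of the MHC class II presentation route: H2-Aa, H2-Ab1, H2-Eb1, H2-DMa, H2-DMb1, Cd74 and Ciita. They were chosen by name, all 7 were found among the 27999 genes listed for each library, and they are followed across cell classes that were set apart without using them. The study asked how the mouse lung changes while breast cancer metastases grow out. Met-1 cells, a mammary carcinoma line derived from MMTV-PyMT tumors, were injected into the tail vein (500000 cells) of female FVB/NJ mice that were 10 weeks old. Whole lungs were dissociated for single-cell RNA sequencing (10x Genomics) at week 1, the low-burden lung, and at week 3, the high-burden lung. Both lungs carried injected Met-1 cells, no uninjected lung is part of the series, and each burden is 1 mouse and 1 library. Burden, time after injection, mouse and library therefore cannot be told apart, and no test between the lungs exists. All intervals are 95% and cover counting error only.

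MHC class II molecules present peptides from engulfed material to CD4 T cells. An alpha chain (H2-Aa) and a beta chain (H2-Ab1) form the I-A molecule, and H2-Eb1 is the beta chain of I-E. Cd74, the invariant chain, holds the new molecule in shape and blocks its groove, and H2-DMa and H2-DMb1 form the H2-M exchanger that swaps the leftover Cd74 fragment for peptide. Ciita is the coactivator that switches these genes on through proteins bound to the X and Y boxes of their promoters. Dendritic cells, B cells and macrophages are the professional presenting cells. In the lung, alveolar type 2 (AT2) cells, the surfactant makers, and some capillary endothelium also carry class II molecules.

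In the mm10 genome (GENCODE M21 annotation), 5 of the 7 genes lie together on chromosome 17. H2-DMa spans chr17:34119541-34139101, H2-DMb1 chr17:34153072-34160230 and H2-Ab1 chr17:34257689-34269419, all on the plus strand. H2-Aa spans chr17:34282744-34287823 on the minus strand, and H2-Eb1 chr17:34305867-34316674 on the plus strand. Ciita lies apart at chr16:10480059-10528418, on the plus strand. RefSeq promoter windows (GRCm38.p6, 300 bases) were searched for 4 of the 7 genes, H2-Aa, H2-Eb1, H2-DMa and H2-DMb1, and not for H2-Ab1, Cd74 and Ciita. The Y box was searched as TGATTGG on both strands, which 7.82% of 32851 promoter windows of this length hold, and an X-type element as AAC, any 2 bases, ATG, any base and TG on both strands, which 0.566% hold. The 3 windows below are shown because they hold a match to one or both of these letter patterns, with matches in capitals, 5′ to 3′ on the strand of the gene. Whether Ciita acts through these matches was not tested.
H2-Aa: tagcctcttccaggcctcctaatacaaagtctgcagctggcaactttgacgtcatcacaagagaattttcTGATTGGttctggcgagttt
H2-Eb1: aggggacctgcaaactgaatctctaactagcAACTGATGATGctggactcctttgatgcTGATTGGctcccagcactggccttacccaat
H2-DMb1: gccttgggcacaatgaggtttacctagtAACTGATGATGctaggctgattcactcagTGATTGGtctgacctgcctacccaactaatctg
The H2-Aa window (chr17:34287854-34287943, minus strand) held the Y box 44 bases before the start of transcription and no match to the X-type letters. H2-Eb1 (chr17:34305747-34305836, plus strand) and H2-DMb1 (chr17:34153071-34153160, plus strand) held both, with 17 and 18 bases between them. Both elements together were found in 23 of the 32851 windows. Neither of the H2-DMa windows held a match, and no match says only that these letters are not in that window.

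After filtering, 2473 low-burden and 3033 high-burden cells remained, with a median of 4073 and 13998 UMIs (unique molecular identifiers, each counted once per captured RNA molecule). Low-burden cells were thus shallower, and 11 cell barcodes occurred in both libraries. Marker genes placed 1966 low-burden and 2516 high-burden cells in a class. A further 481 and 442 cells carried markers of a second, unrelated class and were set aside, and 26 and 75 met none. In each of the 19 classes of at least 10 cells, more of the class's own markers than of any other class were among its 10 leading genes. Cells were placed by these same markers, so this is no independent check of the class names. Classes are called "-like" because they were rebuilt from markers. The class II genes were read against T-like cells (122 at low and 29 at high burden), which should hold little class II RNA in the mouse. The median T-like cell had 5.77 class II UMIs per 10000 at low burden and 7.42 at high burden. The T-like limit, above which 10% of T-like cells lay, was 14.1 at low and 24.6 at high burden. At high burden only 3 T-like cells lay above it. Shares above the limit are thus not on the same scale in the 2 lungs. RNA free in the droplets can give such counts, and its level was not measured here.

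By median level per cell, cDC2-like cells (conventional dendritic cells that present mainly to CD4 T cells) and then cDC1-like cells (which cross-present to CD8 T cells) were highest in both lungs. C1q macrophage-like, B-like and AT2-like cells followed in that order, with mature dendritic-like cells (14 cells, median 305.9) between cDC1-like and C1q macrophage-like cells at high burden. The ranges of C1q macrophage-like and B-like cells overlapped, so their order is not set. In the 19 cDC2-like cells of the low-burden lung, class II UMIs per 10000 UMIs of a cell ran from 180.2 to 1681 with a median of 1247, and in the 16 of the high-burden lung from 484.4 to 1181 with a median of 727.4. The 69 cDC1-like cells of the low-burden lung ran from 442.3 to 1207 (median 752.8), and the 69 of the high-burden lung from 264.3 to 1007 (median 506.0). The B-like cells had a median of 265.0 (n = 22 cells) and 151.5 (n = 18). C1q macrophage-like cells, which carry the complement C1q genes, had a median of 268.6 (n = 47) and 172.5 (n = 749) but spread from 3.73 to 1362 at high burden, a range that covers the level of T-like cells as well as that of dendritic-like cells. Monocyte-like cells (64, low burden) had a median of 37.0, with 68.8% above the T-like limit of their library.

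**Figure D1:**
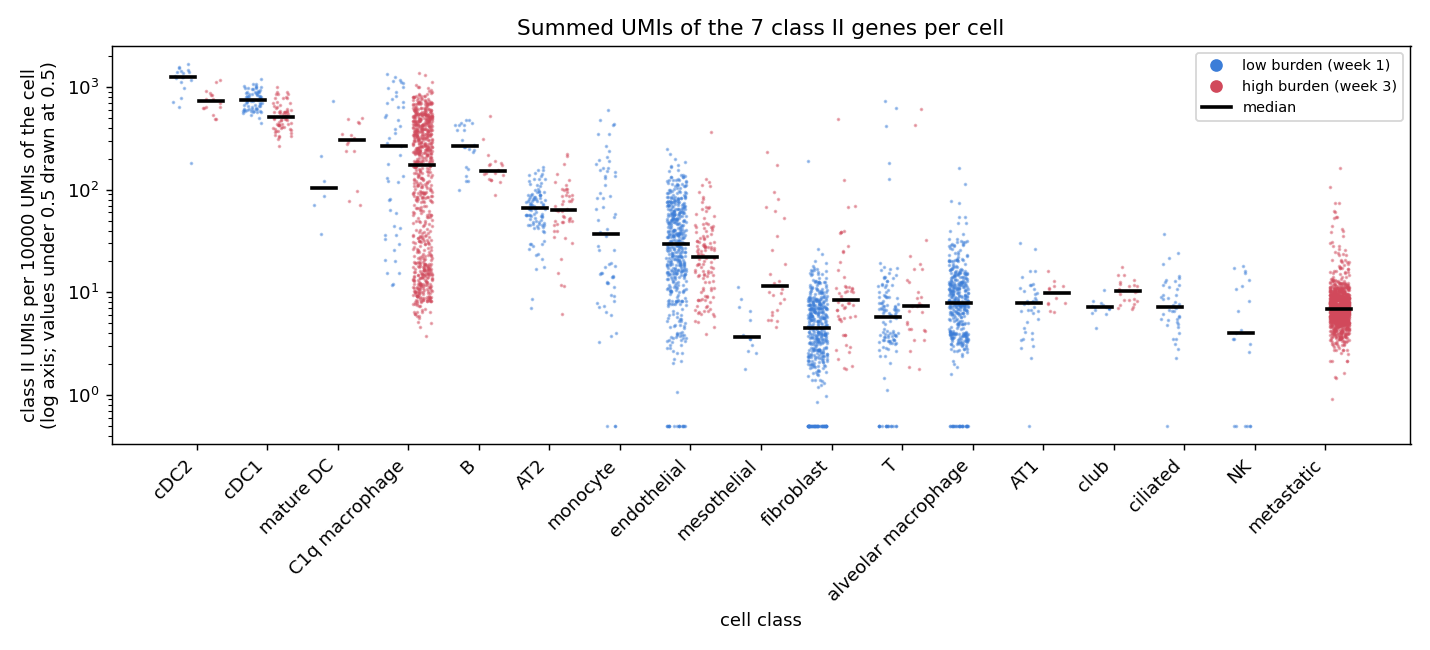
Summed UMIs of the 7 class II genes per 10000 UMIs of each cell (log axis), by cell class, low burden in blue and high burden in red; each point is 1 cell, black bars are medians, groups under 5 cells and some classes are left out, and values under 0.5 are drawn at 0.5. The cDC2-like and cDC1-like cells sit at the top, C1q macrophage-like cells spread over the whole range, AT2-like cells stand at about the same place in both lungs (medians 66.2 and 63.9), and metastatic-like cells (median 6.81) lie at the level of T-like cells.

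AT2-like cells held class II RNA as a class and not in a few members. All 98 low-burden and 47 high-burden AT2-like cells had at least 1 class II UMI, the middle 80% of cells ran from 29.5 to 123.8 and from 26.8 to 122.0 per 10000, and 98.0% and 89.4% lay above the limit of T-like cells. At 3000 UMIs per cell, Cd74 was seen in 100% (96.2% to 100%) of the low-burden and 97.9% (88.7% to 99.9%) of the high-burden AT2-like cells. In T-like cells the shares were 58.9% (46.8% to 70.3%) and 75.9% (56.5% to 89.7%). The counting intervals were apart at low burden and overlapped at high burden. Of the 9 cDC1 markers, 5 had no UMI in low-burden AT2-like cells (Xcr1, Clec9a, Itgae, Gcsam and Flt3) and 5 in high-burden ones (Clec9a, Itgae, Wdfy4, Tlr3 and Flt3), and the others were read. The summed cDC2 markers were at 14.9 CPM (UMIs of a gene per 1000000 UMIs of the class) in the 10% of low-burden cells with the most class II and 24.9 CPM in the rest, and at 35.6 and 12.8 CPM at high burden. The 9 cDC1 markers summed to 148.9 and 143.0 CPM in these groups at low burden and to 285.0 and 121.9 CPM at high burden. The C1q macrophage markers stood at 44.7 and 47.7 CPM at low burden and 480.9 and 369.0 CPM at high burden. The part of these markers in the AT2-like level was not tested. Alveolar type 1, club and ciliated cells of the same epithelium lay near the T-like level, with medians of 7.77, 7.10 and 7.23 at low burden. At high burden the medians were 9.82 in alveolar type 1 cells (n = 12) and 10.4 in club cells (n = 23), against 7.42 in T-like cells. Only 4 ciliated cells were found there. Endothelial-like cells stood between AT2-like cells and these classes, with medians of 29.3 (n = 475 cells) and 22.1 (n = 121). Of them 74.1% and 46.3% lay above the T-like limit of their library, which differed (14.1 and 24.6). Alveolar macrophage-like cells, the resident phagocytes of the air space, were low for a macrophage, with a median of 7.82 (406 cells, low burden); 3 such cells were found at high burden.

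Within dendritic-like cells (94 low-burden and 99 high-burden cells of the cDC1, cDC2 and mature types together), Cd74 was the most abundant of the 7 per kilobase of exon, at 25062 and 16475.5 CPM per kilobase. Cd74 lies at chr18:60803848-60812652, on the plus strand. H2-Aa and H2-Ab1 followed at 5847 and 5861 CPM per kilobase at low burden and 3480 and 3777 at high burden, so that the alpha and beta chains of I-A stood near each other. The H2-M chains were lower, at 362.3 for H2-DMa and 609.7 for H2-DMb1 at low burden. H2-Eb1 reached 79.2 and 99.8 CPM per kilobase, far under its partner genes, and it was under H2-Ab1 in AT2-like, B-like and C1q macrophage-like cells as well. The reads came from FVB/NJ mice and the reference is C57BL/6J, and class II genes differ between strains. How much this lowered H2-Eb1 was not tested. The heat map of levels gives each gene in each class.

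**Figure D2:**
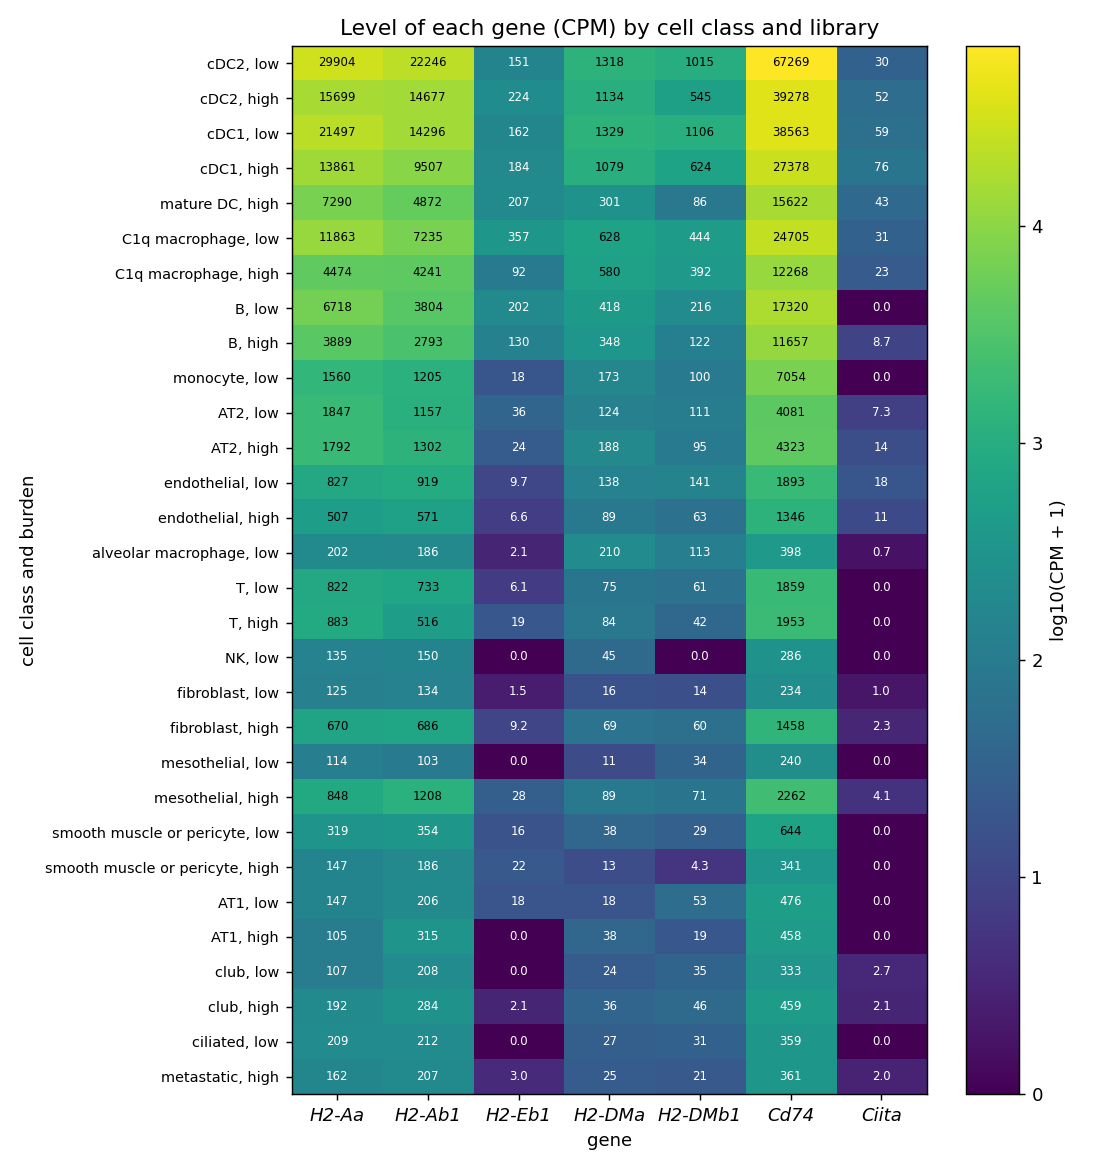
Level of each class II gene in CPM, printed in each field and coloured by log10(CPM + 1), for every class and library of at least 10 cells; low and high name the burden. H2-Aa, H2-Ab1 and Cd74 are highest in cDC2-like cells of the low-burden lung, and H2-Eb1 stays at or under 357 CPM in all of them. Ciita reads 0 in T-like and NK-like cells, and in alveolar type 1 and smooth muscle or pericyte-like cells of both lungs. It also reads 0 in low-burden B-like, monocyte-like, mesothelial-like and ciliated cells, and each 0 allows up to 3 counts.

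The mix of the 7 genes differed between classes. Cd74 made up 50.1% (49.6% to 50.5%) of the class II UMIs of cDC1-like cells and 60.4% (58.3% to 62.5%) of those of B-like cells at low burden. In monocyte-like cells it made up 69.8% (67.8% to 71.7%), the highest share of any class with at least 10 cells in a library. Alveolar macrophage-like cells stood apart in the other direction, since H2-DMa and H2-DMb1 together made up 29.1% (26.9% to 31.4%) of their class II UMIs against 3.16% (3.00% to 3.33%) in cDC1-like cells. In these cells H2-DMa was read at 210.0 CPM, beside 202.3 for H2-Aa and 186.2 for H2-Ab1. At 3000 UMIs per cell, 47.0% of alveolar macrophage-like cells had an H2-DMa UMI, against 12.3% of T-like and 4.44% of fibroblast-like cells of that library, while 34.3% had an H2-Aa UMI, against 30.1% of T-like cells. H2-DMb1 was seen in 28.4% (22.7% to 34.6%) and in 9.59% (3.94% to 18.8%) of them. The counting intervals of these cells and of T-like cells were apart for both exchanger chains and overlapped for H2-Aa. The H2-M share of endothelial-like cells was 7.08% (6.59% to 7.60%) and 5.87% (5.12% to 6.70%). Classes near the T-like level had shares of like size, such as 8.27% and 8.04% in club-like and 5.92% in metastatic-like cells.

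**Figure D3:**
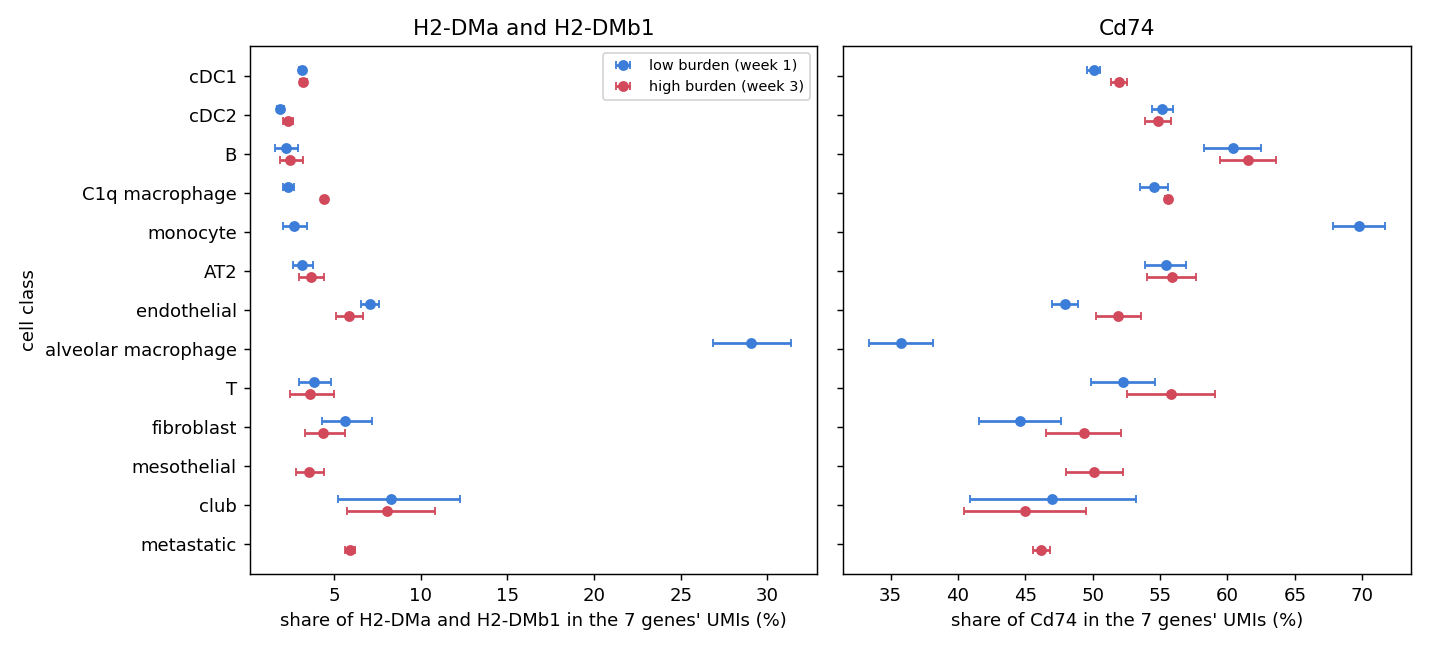
Share of H2-DMa plus H2-DMb1 (left) and of Cd74 (right) in the UMIs of the 7 genes, by class and library. Groups drawn have at least 10 cells and 100 such UMIs, and some classes are left out. Bars are 95% Clopper-Pearson intervals for counting error. Alveolar macrophage-like cells lie alone at 29.1% on the left, and monocyte-like cells are farthest to the right, at 69.8%.

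Ciita is a transcription factor gene with few transcripts, and it was read at 59.0 CPM (34 UMIs) and 75.8 CPM (42 UMIs) in cDC1-like cells. C1q macrophage-like cells had 30.6 CPM (6 UMIs) and 23.3 CPM (195 UMIs), endothelial-like cells 18.2 (47 UMIs) and 10.99 (15 UMIs), and AT2-like cells 7.28 (4 UMIs) and 13.6 (5 UMIs). The intervals of the AT2-like levels, 1.98 to 18.6 and 4.41 to 31.7, lie under that of cDC1-like cells at low burden (40.9 to 82.5). No Ciita UMI was found in T-like cells of either lung, in 492610 and 261621 UMIs, which allows up to 6.09 and 11.5 CPM. None was found in low-burden B-like cells either, but 74132 UMIs allow up to 40.5 CPM, so this depth cannot set B-like cells apart from endothelial-like ones. Metastatic-like cells had 2.03 CPM (64 UMIs in 1303 cells).

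Between the lungs, the summed class II level of dendritic-like cells was 81818 CPM (81173 to 82466) at low burden and 52349.8 CPM (51851 to 52852) at high burden, a log2 ratio of −0.64 (−0.66 to −0.63). H2-Aa went from 22208 to 13218 CPM, H2-Ab1 from 15052 to 9699, Cd74 from 42079 to 27662 and H2-DMb1 from 1025 to 533.4. The middle 80% of cells ran from 560.0 to 1247 per 10000 at low burden and from 323.4 to 845.2 at high burden, so the cells of the libraries overlapped. The ratio was −0.55 in cDC1-like cells alone and −0.77 in cDC2-like cells alone. H2-Eb1 (log2 ratio 0.33, −0.02 to 0.69) and Ciita (0.41, −0.21 to 1.05) had ratios above 0, with intervals that include 0. None of the 7 genes was past 2-fold lower, while 4.07% of 3244 genes measured in these cells were. At 1.5-fold, 4 of the 7 were lower (H2-Aa, H2-Ab1, H2-DMb1 and Cd74), against 12.1% of all genes. The median log2 ratio was −0.61 over the 7 and 0.10 over all genes, and the 5th percentile of all genes was −0.92.

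**Figure D4:**
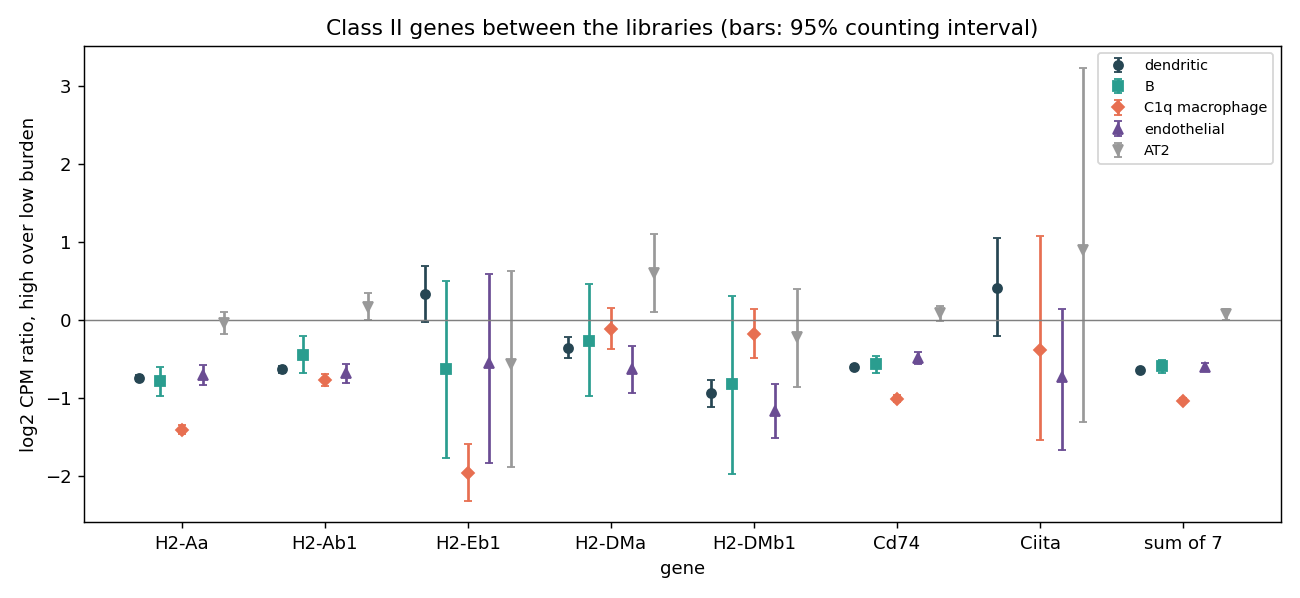
Log2 ratio of CPM, high over low burden, for each class II gene and their sum in 5 classes; bars are 95% counting intervals and the grey line marks equal levels. The sums of dendritic-like, B-like, C1q macrophage-like and endothelial-like cells lie under 0 and that of AT2-like cells at 0.07, and Ciita intervals cross 0 in all 4 classes where it was read in both lungs.

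B-like cells had 28679 CPM (27472 to 29924) and 18947.5 CPM (18160.1 to 19760.4), a log2 ratio of −0.60 (−0.68 to −0.51). Of the 7 genes, 4 passed the filter on low counts and none was past 2-fold lower, against 7.64% of 406 genes. All 4 ratios were below 0, as were 47.5% of all genes, and that of H2-DMa was −0.27 (−0.98 to 0.46) and turned to 0.54 in cells thinned to 3000 UMIs, where 11 of 22 low-burden cells dropped out. The medians per cell, 265.0 and 151.5, rest on 22 and 18 cells, and 1 high-burden cell held 21.9% of the class II UMIs of its group. Leaving out the top cell of each library gave −0.77.

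Endothelial-like cells had 3946 CPM (3870 to 4023) and 2594 CPM (2509 to 2681), a log2 ratio of −0.61 (−0.66 to −0.55). H2-DMb1 was past 2-fold lower at −1.16 (−1.52 to −0.82), which makes 1 of the 6 genes that passed the filter against 3.26% of 7477 genes. H2-Aa was at −0.71 (−0.83 to −0.58) and Cd74 at −0.49 (−0.57 to −0.41). The size of the endothelial ratio was not firm. It was −0.29 at 3000 UMIs per cell, where 137 shallow low-burden cells dropped out, and −0.16 when cells with a second class were kept. The 9 C1q macrophage markers summed to 1200.1 CPM in the 13 high-burden cells with the most class II and to 362.1 CPM in the other 108, and to 75.1 and 125.2 CPM at low burden. Their part in the result was not tested.

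Endothelial-like cells were not uniform. Those of cluster 11, led by Wfdc1, Iigp1 and Gpihbp1 (the capillary anchor of lipoprotein lipase), had 5958 CPM at low burden (217 cells) and 4472 CPM at high burden (30 cells). Those of cluster 13, led by Car4 and Emp2, had 3545 CPM (102 cells) and 3014.5 CPM (36 cells). Cells of cluster 5, led by Cytl1 and Vwf (von Willebrand factor), were lower, at 1817 CPM (51 cells) and 1892 CPM (10 cells). Cells of cluster 17, led by Esm1, a gene of sprouting tip cells, had 1189 CPM at high burden (24 cells, with 3 at low burden) and a median of 8.20 per 10000, close to the T-like median of 7.42. The clusters were found without the class II genes. Within clusters 11 and 13 the log2 ratios were −0.41 and −0.23, closer to 0 than over all endothelial-like cells. Leading genes of cluster 2 included Cox4i2, Gucy1a3 and Higd1b, which are on the marker list of smooth muscle or pericyte-like cells. Endothelial-like cells of cluster 2 went from 3423 CPM (18 cells) to 2184 CPM (20 cells), and whether they are endothelial cells alone was not tested. Cluster 0, led by Fibin and Ednrb, had 1179 CPM in 80 low-burden cells and no high-burden cell. The clusters took different shares of the class: cluster 11 held 45.7% of low-burden and 24.8% of high-burden endothelial-like cells.

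AT2-like cells were at 7363 CPM (7137 to 7593) and 7738 CPM (7457 to 8028), a log2 ratio of 0.07 (0.0022 to 0.14). H2-Aa (−0.04, −0.19 to 0.10), H2-Ab1 (0.17) and Cd74 (0.08) stood near 0, and H2-DMa was at 0.60 (0.10 to 1.11) on 68 and 69 UMIs. Of the 5 genes that passed the filter none was past 2-fold in either direction, where 3.33% of 1712 genes were lower and 5.55% were higher. Sign and size of the AT2-like sum rested on the scaling and on single cells: it was −0.07 with median-of-ratios scaling and −0.0046 without the top cell of each library. T-like cells were at 3557 and 3497 CPM, of which 28.3% and 46.8% came from 1 cell each. In the 10% of low-burden T-like cells with the most class II, the 9 cDC1 markers summed to 431.9 CPM, against 52.9 CPM in the rest. None of the 4 genes that passed was past 2-fold lower in them, against 7.76% of 1855 genes.

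Of the 6 classes whose genes were compared across the table, C1q macrophage-like cells had the sum furthest below its low-burden level. It was 45263 CPM (44325 to 46214) at low burden and 22069 CPM (21968 to 22170) at high burden, a log2 ratio of −1.04 (−1.07 to −1.01). H2-Eb1 (−1.96, −2.32 to −1.59), H2-Aa (−1.41, −1.47 to −1.35) and Cd74 (−1.01, −1.05 to −0.97) were past 2-fold lower, 3 of 7 genes against 12.4% of 7289 genes. H2-Ab1 was at −0.77 (−0.85 to −0.69). Over the whole class the exchanger genes differed less, H2-DMa at −0.11 (−0.37 to 0.16) and H2-DMb1 at −0.18 (−0.49 to 0.14). The H2-M share of the class II UMIs went from 2.37% (2.06% to 2.71%) to 4.40% (4.31% to 4.50%). The groups overlapped widely: the middle 80% of cells ran from 20.4 to 1100.4 and from 10.8 to 585.1 per 10000. Over medians the ratio was −0.64, against −0.81 in B-like cells, so which class lay furthest below depended on the summary used.

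The libraries filled this class with different cells. Cluster 18 held 93.6% of the low-burden and 13.1% of the high-burden C1q macrophage-like cells, and clusters 19, 21 and 23 together held 3 of the 47 low-burden cells, so that they may reflect the high-burden library. Within cluster 18, led by Fabp5 and Hmox1, the sum was 43059 CPM at low burden (44 cells) and 18555 CPM at high burden (98 cells), a log2 ratio of −1.21. The exchanger genes were lower within this cluster as well. H2-DMa went from 628.0 CPM (518.0 to 754.4) to 412.3 CPM (373.6 to 453.9). H2-DMb1 went from 446.2 CPM (354.3 to 554.6) to 236.9 CPM (207.8 to 268.9). The H2-M share of this cluster went from 2.49% (2.16% to 2.86%) to 3.50% (3.24% to 3.77%). At high burden the clusters lay far apart. Cluster 21, led by Cxcl9, Serpina3g and Gbp2b, genes known to be induced by interferon gamma, had 48594 CPM and a median of 497.5 per 10000 (187 cells). Cluster 19, the largest (389 cells), led by Fcrls and Tmem119, had 14789 CPM and a median of 94.0 with cells at both ends of the range. Cluster 23, led by Saa3, Alox15 and Prg4, had 3306 CPM and a median of 19.5 (72 cells). Median depth was alike, 9899, 11242 and 10331.5 UMIs per cell.

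Over clusters 21, 19 and 23, Ciita followed the same order as the class II sum, at 50.7 CPM (99 UMIs) in cluster 21, 15.7 CPM (72 UMIs) in cluster 19 and 2.59 CPM (2 UMIs) in cluster 23. The H2-M share was 3.93% in cluster 21, 5.20% in cluster 19 and 7.25% in cluster 23. In high-burden cells of cluster 18 it was 3.50% (3.24% to 3.77%), the lowest of the 4, so the shares did not run in the reverse order of the class II sums.

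**Figure D5:**
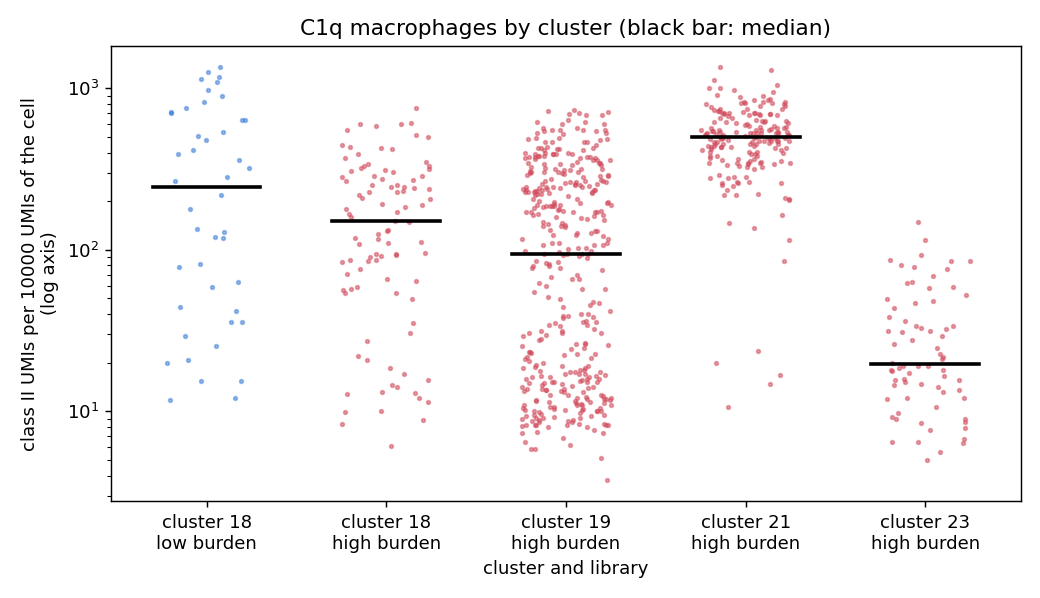
Class II UMIs per 10000 UMIs (log axis) of each C1q macrophage-like cell, by cluster and library, low burden in blue and high burden in red; black bars are medians. Cluster 21 cells sit around their median of 497.5, cluster 23 cells around 19.5, and cluster 19 spreads over both levels.

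Arg1, the arginase of wound-repair macrophages, and Ccr2, the receptor that marks recruited monocytes, divided the high-burden C1q macrophage-like cells. The 123 cells with an Arg1 UMI had a median of 31.5 class II UMIs per 10000 and the 626 without had 223.0. With cells thinned to 3000 UMIs and sorted again by an Arg1 UMI at that depth, 82 cells with one had a median of 9.50 class II UMIs and 667 without had 59.0. Cells with a Ccr2 UMI (401) had a median of 281.0 and those without (348) 40.9. Sorted again after thinning, the medians were 91.0 (242 cells) and 28.0 (507 cells) class II UMIs. Folr2, a marker of long-resident tissue macrophages, went with low class II in both lungs: 81.8 with (19 cells) and 493.7 without (28 cells) at low burden, and 31.6 (169 cells) and 235.2 (580 cells) at high burden. No low-burden cell had an Arg1 UMI, and the ratio between lungs over cells without one was −0.88.

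Among the stromal classes, fibroblast-like and mesothelial-like cells had higher sums at high burden and smooth muscle or pericyte-like cells a lower one. Fibroblast-like cells went from 525.4 CPM (433 cells) to 2955 CPM (54 cells), and mesothelial-like cells, the lining of the lung surface, from 502.7 CPM (12 cells) to 4511 CPM (26 cells). The medians per cell, 4.45 and 8.38 in fibroblast-like and 3.70 and 11.5 in mesothelial-like cells, differed less than the sums. Higher medians at high burden were also found in T-like cells (5.77 and 7.42) and club-like cells (7.10 and 10.4). The club-like sum had a log2 ratio of 0.53 (0.31 to 0.75). Smooth muscle or pericyte-like cells went from 1399.8 CPM (62 cells) to 712.4 CPM (15 cells), a log2 ratio of −0.97 (−1.24 to −0.71), but 1 cell held 67.2% of the low-burden UMIs and the medians were 4.31 and 6.61. A single fibroblast-like cell held 36.1% of the high-burden UMIs. The summed C1q macrophage markers moved with class II in mesothelial-like cells of the high-burden lung, at 1691 CPM in the 3 cells with the most class II and 391.1 CPM in the other 23. In fibroblast-like cells of that lung these 9 markers were at 472.8 CPM in the 6 cells with the most class II and 358.1 CPM in the other 48, with Folr2 at 0, and the cDC1 markers at 259.3 and 73.2 CPM, with Xcr1, Tlr3 and Gcsam at 0. Their part in the result was not tested. Metastatic-like cells had 781.4 CPM, a median of 6.81 against 7.42 in T-like cells, and 1.53% (0.94% to 2.36%) above the T-like limit. At 3000 UMIs per cell Cd74 was seen in 61.9% of them and H2-Aa in 38.8%, against 75.9% and 31.0% of T-like cells, with overlapping counting intervals.

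The pathway around the 7 genes was read from a list of 41 genes, of which 40 are in the table. In dendritic-like cells 27 of them passed the filter, of which 3 were past 2-fold lower and 4 past 2-fold higher, where 4.07% and 5.27% of all genes were. Among the other class II genes, H2-Ob, a chain of the H2-O molecule that restrains H2-M, was lower (100.9 and 41.0 CPM, log2 ratio −1.30, −1.93 to −0.69), and its partner H2-Oa was at 216.4 and 143.0 CPM. H2-DMb2, the second beta chain of H2-M, stayed at 314.7 and 325.7 CPM while H2-DMb1 was lower. Ifngr1, a chain of the interferon gamma receptor, was lower, at 290.8 and 140.5 CPM (−1.05). Irf8, which cDC1 cells need, was at 946.6 and 1113 CPM. Cd40, the receptor for T cell help, was higher on 10 and 55 UMIs (2.36, 1.38 to 3.50), and Cd86, the costimulatory ligand, was at 159.3 and 201.4 CPM. Among the proteases, Ctss, which cuts Cd74 in dendritic cells, was at 720.9 and 681.3 CPM.

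In C1q macrophage-like cells 30 of the 40 passed, with 5 past 2-fold lower and 4 past 2-fold higher, where 12.4% and 16.3% of all genes were. Cd83, a surface protein that slows the removal of class II, went from 372.5 to 128.7 CPM (−1.53, −1.88 to −1.17). Ctsh, Cd40, Ifngr1 and Cxcr4 were lower too, at −1.15, −1.12, −1.76 and −3.46. Nfya and March8 were past 2-fold higher on 1 UMI each at low burden. Ctss was abundant and slightly higher (2072 and 2493 CPM), and Ctsl, which takes its place in some cells, was at 158.2 and 125.2 CPM. In AT2-like cells Ctsh, which takes part in surfactant protein maturation, was at 791.4 and 687.9 CPM. Mif, a ligand of Cd74, was past 2-fold higher in all 6 classes compared, with log2 ratios of 2.08 in dendritic-like, 1.09 in B-like, 2.47 in C1q macrophage-like, 1.17 in AT2-like, 1.25 in T-like and 1.72 in endothelial-like cells. Metastatic-like cells held 2039 CPM of Mif, above every one of these classes, and the part of their free RNA in the ratios was not tested. Ifng, the cytokine that induces Ciita, was read in T-like cells at 3 and 13 UMIs, and Lag3, which binds class II, at 6 and 16 UMIs.

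Over 22 groups of at least 20 cells (a class in a library), the 10 genes whose level was most like that of the class II sum were Cd86, Fgd2, H2-DMb2, Gm26522, Cd83, Dnase1l3, Tnfrsf13b, Plbd1, Rgs10 and Ebi3. Their Pearson correlations of log2(CPM + 10) ran from 0.878 to 0.807, as a description over groups that share libraries and depths. The cDC2-like cells (19 and 16), mature dendritic-like cells (6 and 14) and high-burden B-like cells (18) were too few to enter. The cDC1-like cells were thus the only dendritic-like groups in the list. Among the members themselves, Cd74 (0.998), H2-Aa (0.996) and H2-Ab1 (0.990) set the sum, and H2-DMa (0.935), H2-Eb1 (0.923) and H2-DMb1 (0.913) followed. Ciita was at 0.753. The general regulators of the promoter complex did not share the pattern, with Rfx5 at −0.03, Rfxap at 0.08 and Nfyb at −0.09, and neither did Mif, at −0.22.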

How the data were processed

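Single-cell RNA sequencing of 2 lungs, 1 per burden, was analysed. Per the labels, the authors used Cell Ranger 2.0.2 with mm10, to which PYMT had been added. The files deposited hold whole-number UMI counts by gene and cell barcode and were not normalized. They sum to 14041471 UMIs over 2668 low-burden and 52723173 UMIs over 3121 high-burden barcodes. No deposited cell annotation was used.

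Cells with 1000 to 7000 genes and at most 10% mitochondrial UMIs were kept. Each cell was scored for 23 marker lists without class II genes (mean log1p level per 10000 UMIs, each marker capped at its 75th percentile) and placed in its best class at a score of at least 0.3 with 3 markers. Cells with a second, unrelated class above 0.6 of the best score were set aside, which also served against doublets, and no doublet caller was run. Clusters (Leiden, resolution 1, 20 components, 2000 genes, 15 neighbours, scanpy 1.11.5) were found without the class II and pathway genes. Class names were rebuilt, so differences from the study may come from them.

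UMIs were summed per class and library and scaled to CPM. With 1 library per burden no test was possible. Levels carry exact Poisson, shares Clopper-Pearson and ratios conditional binomial 95% intervals (scipy 1.17.1). A count of 0 allows up to 3 counts. Ratios over all genes needed 50 UMIs and detection in 10% of cells of either library. For shares, cells were thinned to 3000 UMIs, and 607 shallower low-burden cells were left out. The fold calls were tested on simulated data. The genes named were the 7 members, pathway genes with at least 50 UMIs in a class, and the 10 most alike. The settings that place cells in classes (score, number of markers and share of a second class) were chosen after the scores had been seen. Ifng, Lag3, Arg1, Ccr2, Folr2 and the motifs were chosen after values were seen, and the members and lists were chosen with earlier results of these data known. A gene of the pathway list is counted but not reported here by name.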

Additional observations from a re-analysis of the deposited data

Results flagged for a closer look

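Among the stromal classes, the sums of fibroblast-like and mesothelial-like cells went the other way from those of the presenting cells. The sum of smooth muscle or pericyte-like cells was lower at high burden (−0.97), but 1 cell held 67.2% of the low-burden UMIs. The medians per cell of that class went up, from 4.31 at low to 6.61 at high burden, so the direction in this class is not set. The class II sum was higher at high burden in fibroblast-like cells, by a log2 ratio of 2.49 (0.91 over medians). In mesothelial-like cells it was higher by 3.17 (1.63 over medians). The sum was lower in dendritic-like, B-like, C1q macrophage-like and endothelial-like cells. The difference was not tested, since each burden is 1 library.

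Cells outside the named classes also held class II RNA above the 3557 and 3497 CPM of T-like cells. Cells that met no class had 7998 CPM at low burden (26 cells, 1 of which held 68.2% of these UMIs) and 16174 CPM at high burden (75 cells). Cells with a second class had 10242 CPM (481 cells) and 10264 CPM (442 cells). Their medians, 13.3 and 21.8 class II UMIs per 10000 for cells with a second class, lay well under their 90th percentiles of 339.1 and 550.8.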

How the results depend on the processing

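The class II sum stayed lower at high burden in dendritic-like, B-like, C1q macrophage-like and endothelial-like cells under each alternative run, with log2 ratios from −0.77 to −0.55, −0.81 to −0.34, −1.21 to −0.64 and −0.86 to −0.16. The AT2-like sum, 0.07, changed sign in 3 of 12 alternatives, and the T-like sum, −0.02, ran from −0.83 to 0.95. Values that left the counting interval follow by setting, and the cause was not tested.

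Median-of-ratios scaling gave −0.69 in dendritic-like, −0.34 in B-like, −0.89 in C1q macrophage-like, −0.074 in AT2-like, −0.35 in T-like and −0.53 in endothelial-like cells. A mean over cells gave −0.59 in dendritic-like, −0.71 in B-like, −0.77 in C1q macrophage-like, 0.95 in T-like and −0.38 in endothelial-like cells, and 0.37 for H2-Ab1 in T-like cells (−0.51 over summed counts). Thinning to 3000 UMIs gave −0.57 in dendritic-like, −0.47 in B-like, −0.96 in C1q macrophage-like, 0.33 in T-like and −0.29 in endothelial-like cells. Classes from clusters gave −0.62 in dendritic-like, −0.51 in B-like, −0.70 in C1q macrophage-like, 0.22 in AT2-like and −0.43 in T-like cells. Keeping cells with a second class gave −0.57 in dendritic-like, −0.83 in T-like and −0.16 in endothelial-like cells. Subtracting the T-like level gave −0.68 in dendritic-like, −0.70 in B-like, −1.17 in C1q macrophage-like and 0.16 in AT2-like cells, and no value in endothelial-like cells, whose high-burden level lay under it. Leaving out the top cell gave −0.77 in B-like, −0.97 in C1q macrophage-like, −0.0046 in AT2-like, −0.44 in T-like and −0.72 in endothelial-like cells. A wider cell filter (up to 20% mitochondrial UMIs) gave −0.48 in T-like cells.

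The following alternatives were chosen after seeing the data. Medians over cells gave −0.62 in dendritic-like, −0.81 in B-like, −0.64 in C1q macrophage-like, −0.052 in AT2-like, 0.36 in T-like and −0.41 in endothelial-like cells. Subtracting the median T-like level gave −1.07 in C1q macrophage-like and −0.86 in endothelial-like cells. Single states gave −0.55 (cDC1) and −0.77 (cDC2) in dendritic-like cells, −1.21 (cluster 18) and −0.88 (no Arg1 UMI) in C1q macrophage-like cells, and −0.41 (cluster 11) and −0.23 (cluster 13) in endothelial-like cells. In cluster 13 H2-DMa was at 0.17, against −0.63 in all endothelial-like cells. Dendritic-like over AT2-like cells stood at 3.47 (log2) at low and 2.76 at high burden, 3.56 and 2.99 over medians, and 2.90 thinned at high burden. C1q macrophage-like over AT2-like cells stood at 2.62 and 1.51, 2.02 and 1.43 over medians, and 2.70 and 1.72 thinned. The fibroblast-like ratio was 0.91 and the mesothelial-like ratio 1.63 over medians.

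The share of all genes past 2-fold lower depended on the filter. With 1 UMI in each library as the only filter it was 12.6% in dendritic-like, 26.7% in B-like, 25.9% in C1q macrophage-like, 13.9% in AT2-like, 14.6% in T-like and 8.42% in endothelial-like cells. At 1.5-fold it was 12.1%, 22.4%, 23.3%, 12.0%, 15.6% and 15.0%, with 4 of 7, 1 of 4, 4 of 7, 0 of 5, 0 of 4 and 5 of 6 class II genes lower. With 1 CPM in place of 10 CPM added, 9 of the 10 most alike genes were shared. Monocyte-like cells numbered 2 at high burden, so their planned ratio was not run. Depth limited Ciita, which was read on 38 and 54 UMIs in dendritic-like cells. No paired analysis was possible because the labels give no replicate numbers and each burden is 1 library.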
